A study of Mus musculus with 10 samples.

Results

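The liver makes most of the apolipoproteins that coat plasma lipoproteins, and 8 of their mouse genes sit side by side in 2 short stretches of the genome. The *Apoa1* cluster on chromosome 9 holds *Apoa1*, *Apoc3*, *Apoa4* and *Apoa5*, and the *Apoe* cluster on chromosome 7 holds *Apoe*, *Apoc1*, *Apoc2* and *Apoc4*. With *Apoa2* on chromosome 1 and *Apob* on chromosome 12 these made 10 genes, taken by name from the 16647 genes counted in the liver RNA. All 10 were found and tested, and the clusters were compared between 5 MI-883-treated and 5 control livers. The mice carried human PXR, CAR, CYP3A4 and CYP3A7 in place of mouse counterparts, in every group. They were males of 10 to 15 weeks at the start of a high-fat diet (HFD), which they ate for 8 weeks before treatment and throughout it. Vehicle (5% DMSO, 5% PEG300 and 90% corn oil) or MI-883 at 5 mg/kg in that vehicle was then gavaged 3 times per week for 4 weeks, and livers were taken after a 3 h fast. MI-883 activates CAR and antagonizes PXR, and the question was what it did to liver transcripts on this diet. Each library was the liver of 1 mouse. Because this was whole liver, a lower level can mean fewer hepatocytes or less mRNA in each, which cannot be told apart here.

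Apolipoproteins hold lipid particles together and decide where the lipid goes. Apob is the backbone of VLDL and LDL, while Apoa1 and Apoa2 are the main proteins of HDL. Apoc2 switches on lipoprotein lipase, which empties triglyceride from the particles, Apoa5 helps that enzyme, and Apoc3 and Apoc1 slow the clearance of the particles. Apoe is the ligand through which the liver takes remnants back up, and Apoa4 is made with triglyceride-rich particles and in mouse liver is known to rise with lipid load. Apoc4 is a little-studied passenger of VLDL.

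*Apoa5* was the 1 gene of the 10 called lower in MI-883-treated livers, called meaning a Benjamini-Hochberg adjusted P under 0.05 over 13219 tested genes in edgeR. Of all tested genes 0.265% were called lower, 0.764% higher and 1.03% in either direction. By the Wald test of DESeq2, 5 of the 10 were called lower, *Apoa1*, *Apoa5*, *Apoe*, *Apoc1* and *Apoc4*, against 1.30% of all genes called lower by that tool, 2.20% higher and 3.50% in either direction. The 5 treated livers lay below all 5 controls in 4 of the 10, *Apoa1*, *Apoa5*, *Apoc1* and *Apoc4*, against 1.93% of all genes. In 2.05% of all genes the treated livers lay above every control, and in 3.98% the groups parted in one of these ways. In direction 9 of the 10 were lower and *Apoa4* was higher, with a median log2 fold change of -0.32, while 49.0% of all tested genes were lower and their median was 0.0045. The 100 most abundant tested genes outside the 10 had a median of -0.07, with 64 lower and 36 higher. The counts behind these values were large, with 24014461 to 36221514 reads on genes per control liver and 23513665 to 28349963 per treated liver. *Cyp2b10*, the classical CAR target, was checked as a sign of treatment and rose by 4.80 (SE 0.247) on the log2 scale, while the mouse loci *Nr1i2* (PXR) and *Nr1i3* (CAR) had log2 fold changes of 0.07 and -0.16 and the mouse gene *Cyp3a11* had 0 to 1 reads per liver. The spread between mice, not counting error, limited the comparison.

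Libraries differed in how short transcripts compared with long ones, and this touched most of the 10 genes. For each liver, the deviation of log2 CPM (CPM being the share of a library's reads scaled to a common total) from the mean over livers was taken, and its median over 2372 genes with transcripts of 4000 bases or more was subtracted from its median over 530 genes under 1000 bases. This difference was -0.288 in treated liver 3 and -0.355 in treated liver 5. The other treated livers lay at 0.165, 0.0148 and 0.0351, and the controls between -0.00882 and 0.277. Between the groups the difference did not pass an exact two-sided permutation test (P = 0.198). Transcripts of *Apoa2* (492 bases), *Apoc3* (526), *Apoc1* (532), *Apoc4* (538) and *Apoc2* (631) were all short, *Apoa1* had 1035 bases and *Apoe* 1221, *Apoa4* had 1815, *Apoa5* 2515 and *Apob* 13934. The log2 fold change of each of the 10 genes is therefore also given with this length trend removed from every liver, without treated livers 3 and 5, or both, and the origin of the trend was not tested. The same fits gave 181 called genes with the trend removed and 54 without the 2 livers, against 136.

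**Figure D1:**
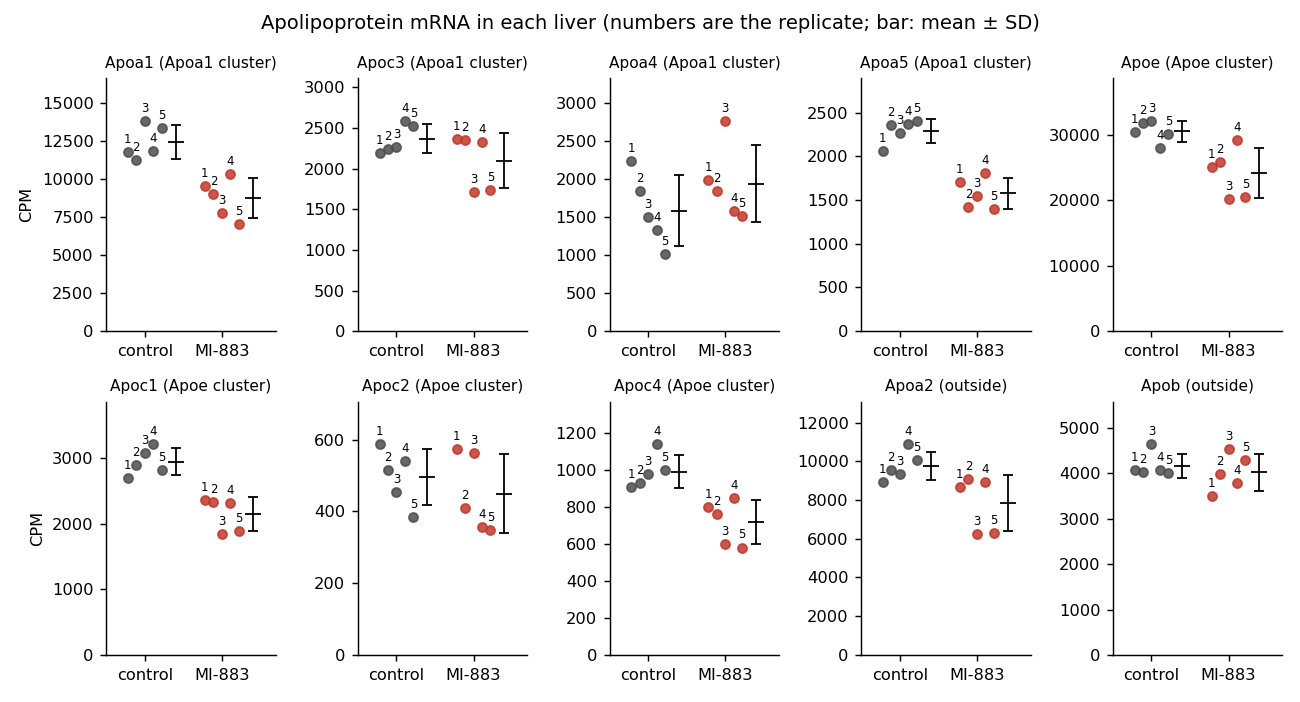
Level of each of the 10 genes in every liver, in CPM on a linear axis from 0. Points are single livers with their replicate number, and the bar beside them is the mean ± SD of 5 livers. The treated livers lie below every control for *Apoa1*, *Apoa5*, *Apoc1* and *Apoc4*, and treated livers 3 and 5 are the lowest points for *Apoa1*, *Apoa2*, *Apoc1*, *Apoc3*, *Apoc4* and *Apoe*.

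These were among the most abundant messages of the liver. *Apoe* ranked 2 among all genes by mean CPM, *Apoa1* 5, *Apoa2* 7, *Apob* 22, *Apoc1* 34, *Apoc3* 48, *Apoa5* 52, *Apoa4* 82, *Apoc4* 131 and *Apoc2* 288. Together they took 6.66 ± 0.274% of all reads on genes in controls (SD, n = 5, 6.30 to 6.90%) and 5.44 ± 0.475% in treated livers (4.73 to 5.88%). No treated liver reached the lowest control, and the difference of -1.22 percentage points was -0.92 without treated livers 3 and 5. The *Apoe* cluster took 3.45 ± 0.231% and 2.78 ± 0.294% of reads, most of it *Apoe* itself at 3.01% and 2.44%. The *Apoa1* cluster took 1.84 ± 0.0850% and 1.46 ± 0.155%.

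Levels between genes were compared per kilobase of the principal transcript. In controls *Apoe* was highest at 24989 ± 1335 CPM per kb, followed by *Apoa2* at 19829 ± 1511, *Apoa1* at 12008 ± 1086, *Apoc1* at 5534 ± 385, *Apoc3* at 4501 ± 341 and *Apoc4* at 1845 ± 169. Each of these 6 lay above the next in all 5 controls. *Apoa5* (911 ± 55.0), *Apoa4* (874 ± 258) and *Apoc2* (787 ± 125) could not be ordered, since their ranges overlapped from one to the next. *Apob*, with the longest transcript, was lowest at 299 ± 19.3 CPM per kb. This order turned with the length used. Over the union of all annotated exons *Apoa2* stood first at 18167 CPM per kb, ahead of *Apoe* at 14271, and *Apoc4* stood at 391, below *Apoa5*, *Apoa4* and *Apoc2*. By either length, the 2 clusters each ran from a highly abundant HDL or remnant protein down to genes more than an order of magnitude lower.

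The *Apoa1* cluster spanned chr9:46228630-46271921 (GRCm38), and its 4 genes did not move as a block. *Apoa1* (Entrez gene 11806, chr9:46228630-46230469, plus strand, 4 exons), the core protein of HDL, lay at 11792, 11243, 13864, 11877 and 13368 CPM in controls 1 to 5. In treated livers 1 to 5 it lay at 9571, 9038, 7766, 10338 and 7074 CPM. The groups did not overlap, and the highest treated liver stayed below the lowest control. The log2 fold change was -0.51 (SE 0.123), a change of -29.5%, with an adjusted P of 0.0755 in edgeR and 0.00066 in DESeq2, and the exact permutation test over livers gave P = 0.00794, the smallest that 5 against 5 can give. With the length trend removed it was -0.39 (SE 0.0943, adjusted P = 0.0651 from edgeR) and the groups again did not overlap. Without treated livers 3 and 5 it was -0.36 (adjusted P = 0.318), and all 3 livers left were below every control.

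*Apoa5* (Entrez gene 66113, chr9:46268608-46271921, plus strand, 4 exons), the helper of lipoprotein lipase at the other end of the cluster, lay at 2061, 2353, 2270, 2366 and 2408 CPM in controls. In treated livers it lay at 1701, 1415, 1549, 1809 and 1399 CPM. The lowest control stood above the highest treated liver, and livers 3 and 5 were not set apart from 2. *Apoa5* fell by 0.54 on the log2 scale (SE 0.0950, a change of -31.3%), with an adjusted P of 0.0175 in edgeR and 2.88e-07 in DESeq2 and an exact P of 0.00794. The fall was 0.52 with the length trend removed (edgeR adjusted P = 0.00851). It was still called in 7 of the 10 edgeR fits that left out 1 liver, and its adjusted P was 0.0521 without control 5, 0.0566 without treated liver 2 and 0.0582 without treated liver 5. Without both treated livers 3 and 5 the log2 fold change was -0.48 with an adjusted P of 0.127.

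*Apoc3*, the brake on lipoprotein lipase, stands beside *Apoa1* on the opposite strand (Entrez gene 11814, chr9:46233050-46235636, minus strand). Its levels were 2197, 2247, 2272, 2592 and 2528 CPM in controls and 2363, 2350, 1716, 2333 and 1741 CPM in treated livers. Treated livers 1, 2 and 4 lay inside the control range, and livers 3 and 5 lay below it. Its log2 fold change was -0.17 (SE 0.116, 95% interval -0.40 to 0.05, edgeR adjusted P = 0.495). It was 0.013 (SE 0.0637) with the length trend removed and -0.010 without treated livers 3 and 5, so little of the difference in *Apoc3* was left in either fit.

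*Apoa4* (chr9:46240844-46243458, plus strand) was the most variable of the 10. It lay at 2236, 1838, 1507, 1336 and 1016 CPM in controls and at 1993, 1840, 2770, 1577 and 1516 CPM in treated livers. The groups overlapped widely, with treated liver 3 highest. In edgeR the log2 fold change was 0.29 (SE 0.208, 95% interval -0.12 to 0.70, edgeR adjusted P = 0.529), and between 0.13 and 0.45 when single livers were left out. It was 0.35 with the length trend removed and 0.19 without treated livers 3 and 5. Of the 100-base stretches of its transcript, 51.0% also occur in the predicted genes Gm10680 and Gm47528, which lie on the opposite strand, as do 12.0% of those of *Apoa5* in Gm47544. None of these predicted genes was listed in the counts, and the strand setting of the counting was not stated, so reads of both strands cannot be told apart.

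The 250 bases ahead of the annotated starts are shown for 3 genes of this cluster that lay lower, lower and higher. RefSeq (GRCm38) gives them at chr9:46268358-46268607 for *Apoa5*, chr9:46228380-46228629 for *Apoa1* and chr9:46240594-46240843 for *Apoa4*, all on the plus strand and printed 5′ to 3′. Capitals mark matches on either strand. The motifs are the hexamer AGGTCA, to which PXR, CAR and other nuclear receptors can bind, the related hexamer AGTTCA, the further related hexamer GGGTCA, the TATA box (TATAAA) and the E-box (CACGTG).
Apoa5: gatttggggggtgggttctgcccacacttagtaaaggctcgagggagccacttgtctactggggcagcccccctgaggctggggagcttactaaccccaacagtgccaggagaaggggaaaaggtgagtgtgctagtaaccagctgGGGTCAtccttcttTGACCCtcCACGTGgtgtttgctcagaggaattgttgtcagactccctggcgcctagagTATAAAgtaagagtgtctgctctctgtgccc
Apoa1: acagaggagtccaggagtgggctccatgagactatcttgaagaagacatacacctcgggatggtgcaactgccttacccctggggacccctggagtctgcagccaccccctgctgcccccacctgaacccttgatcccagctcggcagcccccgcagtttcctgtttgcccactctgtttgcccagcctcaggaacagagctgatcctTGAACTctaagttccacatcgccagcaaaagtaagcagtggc
Apoa4: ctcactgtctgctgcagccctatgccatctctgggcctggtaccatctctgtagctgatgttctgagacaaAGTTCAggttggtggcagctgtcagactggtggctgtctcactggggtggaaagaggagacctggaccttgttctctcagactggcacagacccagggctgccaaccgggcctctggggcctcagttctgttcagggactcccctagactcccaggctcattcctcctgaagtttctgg

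The *Apoa5* window held GGGTCA at -104 to -99 and its reverse complement at -90 to -85, an E-box at -82 to -77 and a TATA box at -31 to -26. None of these matches overlapped. The *Apoa1* window held AGTTCA on the opposite strand at -42 to -37, and the *Apoa4* window held it at -179 to -174. Such hexamers are common, since AGGTCA was present in 14.02%, AGTTCA in 11.8% and GGGTCA in 11.6% of 32851 start-site windows of that length, TATAAA in 7.59% and CACGTG in 6.02%. Direct repeats of AGGTCA with 1 or 4 bases between them occurred in 0.0335% and 0.0152% of windows and in none of the windows of the 8 genes with an entry. The HNF4 core (1.20% of windows), the C/EBP core (9.56%) and the cAMP response element (1.55%) were also searched, with no match in the windows printed here.

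The *Apoe* cluster spanned chr7:19671579-19701310, with all 4 genes on the minus strand, and every one of them was lower in treated livers. *Apoe* (Entrez gene 11816, chr7:19696244-19701310), the remnant ligand, lay at 30450, 31786, 32161, 28037 and 30125 CPM in controls and 25120, 25825, 20174, 29211 and 20543 CPM in treated livers. Treated liver 4 lay above control 4, so the groups overlapped. The log2 fold change was -0.34 (SE 0.126), a change of -20.8%, with an adjusted P of 0.224 in edgeR and 0.0442 in DESeq2 and an exact P of 0.0159. It was -0.24 (edgeR adjusted P = 0.247) with the length trend removed and -0.19 without treated livers 3 and 5.

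*Apoc1* (Entrez gene 11812, chr7:19689480-19692659), which hinders the uptake of particles, lay at 2701, 2902, 3083, 3213 and 2821 CPM in controls. Its treated levels were 2358, 2339, 1843, 2310 and 1884 CPM, all below the lowest control. Its log2 fold change was -0.46 (SE 0.101), a change of -27.1%, with an adjusted P of 0.0528 in edgeR, 0.00020 in DESeq2 and an exact P of 0.00794. *Apoc1* was called by edgeR in 1 of the 10 fits that left out 1 liver, the one without control 1 (adjusted P = 0.0434). With the length trend removed its log2 fold change was -0.27 (SE 0.0655, adjusted P = 0.0712), and the groups still did not overlap.

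*Apoc4* (Entrez gene 11425, chr7:19678084-19681460) lay at 911, 930, 978, 1141 and 1004 CPM in controls and at 799, 762, 602, 850 and 582 CPM in treated livers. Again no treated liver reached a control. In edgeR the log2 fold change was -0.47 (SE 0.116), a change of -27.6%, with an adjusted P of 0.0828 in edgeR, 0.0056 in DESeq2 and an exact P of 0.00794. With the length trend removed it was smaller, -0.28, but its SE fell to 0.0599 and edgeR called it (adjusted P = 0.0392).

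*Apoc2* (chr7:19671579-19677941), the cofactor of lipoprotein lipase, lay at 587, 516, 454, 540 and 384 CPM in controls and at 573, 410, 564, 356 and 348 CPM in treated livers. The groups overlapped over most of their range. The log2 fold change was -0.14 (SE 0.160, 95% interval -0.46 to 0.17, edgeR adjusted P = 0.701), and it was 0.045 with the length trend removed. Of its 100-base stretches 76.8% also occur in Gm44805, a read-through transcript of the same strand that joins *Apoc4* and *Apoc2*, so the counts of *Apoc2* depend on how such reads were assigned, which was not stated.

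The windows ahead of the neighbours *Apoc4* and *Apoc2* are shown because one of them lay below every control and the other did not. They are chr7:19681461-19681710 and chr7:19677942-19678191 on the minus strand, with capitals as before.
Apoc4: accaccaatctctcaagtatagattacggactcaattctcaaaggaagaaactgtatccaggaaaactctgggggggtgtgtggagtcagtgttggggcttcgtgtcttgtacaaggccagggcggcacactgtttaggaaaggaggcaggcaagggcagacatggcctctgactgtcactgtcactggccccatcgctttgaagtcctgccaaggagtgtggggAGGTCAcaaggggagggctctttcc
Apoc2: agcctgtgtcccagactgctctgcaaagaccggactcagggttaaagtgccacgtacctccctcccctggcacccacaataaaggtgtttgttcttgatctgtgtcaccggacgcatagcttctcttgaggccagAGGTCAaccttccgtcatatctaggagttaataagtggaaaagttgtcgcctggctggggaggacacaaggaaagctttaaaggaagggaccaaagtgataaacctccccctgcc

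Both windows held AGGTCA, at -25 to -20 ahead of *Apoc4* and at -115 to -110 ahead of *Apoc2*. No TATAAA or CACGTG was found in either window.

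*Apoa2* and *Apob* were the members outside the clusters. *Apoa2* (chr1:171221564-171226379), an HDL protein, lay at 8936, 9556, 9364, 10880 and 10044 CPM in controls and 8682, 9095, 6267, 8953 and 6301 CPM in treated livers. Its log2 fold change was -0.31 (SE 0.131, edgeR adjusted P = 0.277, exact P = 0.0238), with treated livers 3 and 5 far below the other 3. It was -0.12 with the length trend removed and -0.13 without these 2 livers.

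*Apob* (chr12:7977629-8016839, 29 exons), the backbone of VLDL, lay at 4082, 4023, 4644, 4066 and 4012 CPM in controls and at 3499, 3988, 4542, 3787 and 4295 CPM in treated livers. The groups overlapped. Its log2 fold change was -0.05 with a 95% interval, taken from its SE, of -0.24 to 0.14 (edgeR adjusted P = 0.832), and the exact test gave P = 0.492. With the length trend removed it was -0.08 (SE 0.0661, adjusted P = 0.591). Without treated livers 3 and 5 it was -0.15 (SE 0.0947, adjusted P = 0.675), and the 3 treated livers left were below every control.

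**Figure D2:**
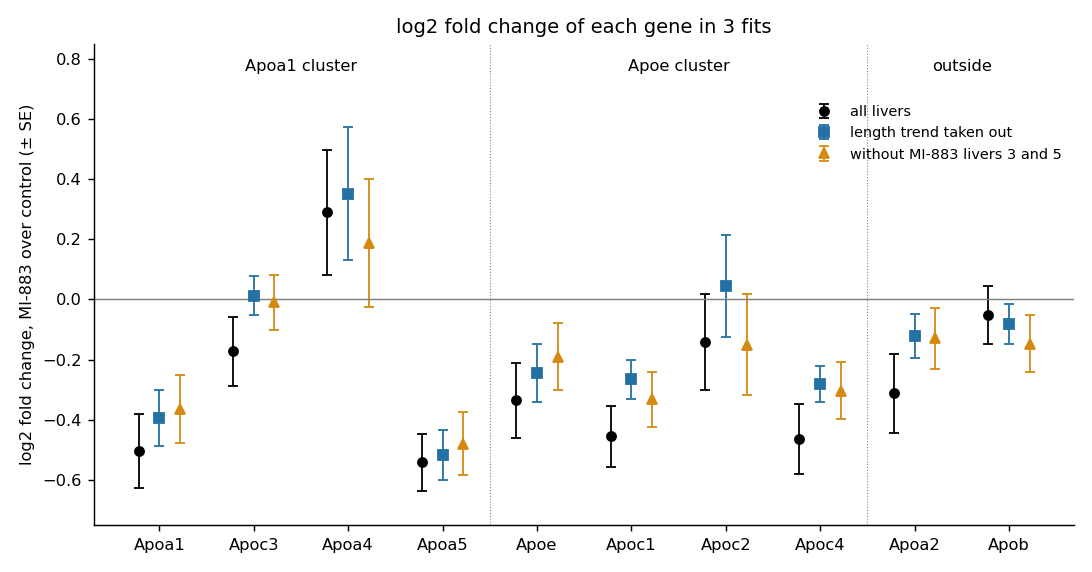
Log2 fold change of MI-883 over control for each gene, with its SE, in edgeR with all livers (circles), with the length trend removed (squares) and without treated livers 3 and 5 (triangles). *Apoa5* stays near -0.5 in all 3 fits, from -0.54 to -0.48, while *Apoc3* moves from -0.17 to 0.013 and -0.010.

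The clusters were also described as whole units, and the wider spread of the *Apoa1* cluster rested on the uncalled *Apoa4*. The mean log2 CPM of the *Apoe* cluster was 11.33 ± 0.0677 in controls and 10.96 ± 0.174 in treated livers, a difference of -0.36, and its 4 log2 fold changes lay within 0.32 of each other. For the *Apoa1* cluster the means were 11.64 ± 0.0506 and 11.40 ± 0.152, a difference of -0.23, and its 4 log2 fold changes spread over 0.83. Apart from *Apoa4* (0.29, SE 0.208) they lay from -0.54 to -0.17, beside -0.47 to -0.14 in the *Apoe* cluster. A difference in evenness between the clusters was not tested. Summed CPM, which *Apoa1* and *Apoe* dominate, gave -0.38 for the *Apoa1* cluster and -0.35 for the *Apoe* cluster, so the order of the clusters turned with the measure. With the length trend removed the means differed by -0.13 for the *Apoa1* cluster and -0.19 for the *Apoe* cluster. The difference between the cluster means within a liver was 0.309 ± 0.0614 in controls (0.202 to 0.360) and 0.436 ± 0.0669 in treated livers (0.375 to 0.545). These cluster values were not tested, since the genes of a cluster are no replicates.

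**Figure D3:**
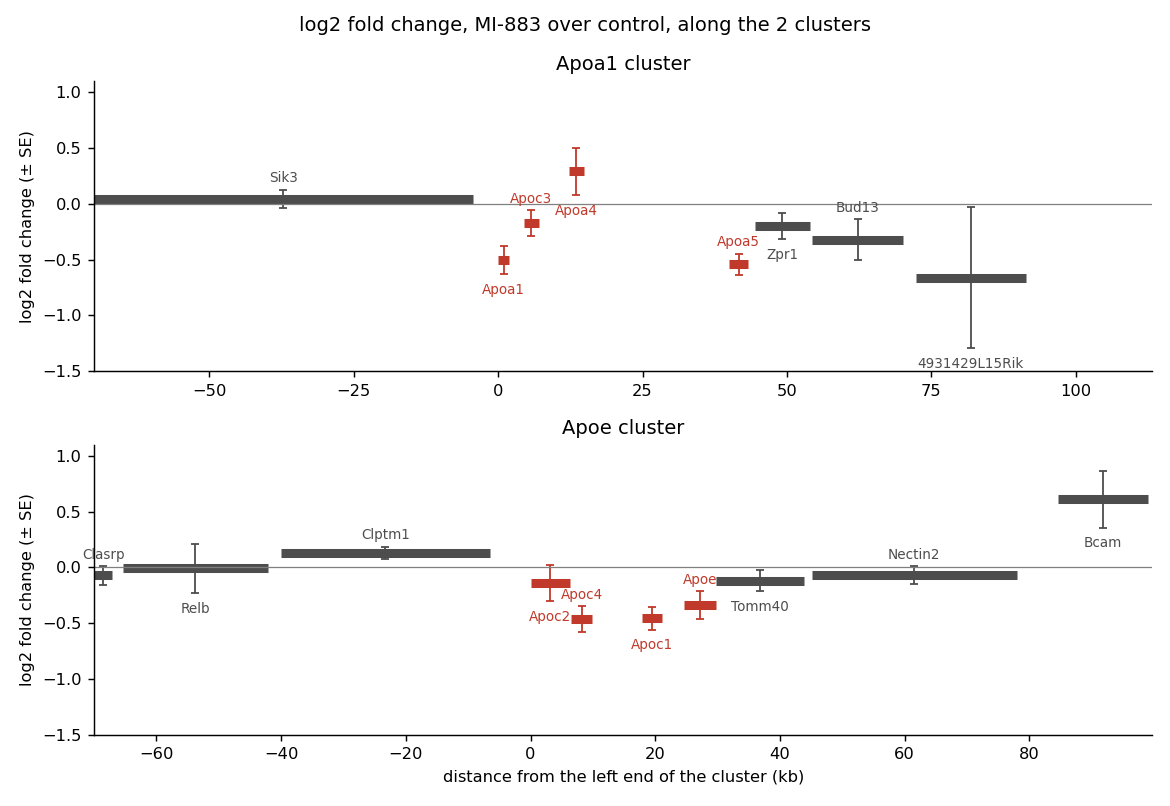
Log2 fold change with its SE along the 2 clusters, against the distance in kb from the left end of the cluster. Each bar is the extent of a gene, red for the apolipoprotein genes and grey for neighbouring protein-coding genes that were tested. *Apoa1* (-0.51) and *Apoa5* (-0.54) lie at opposite ends of a cluster with *Apoa4* (0.29) between them.

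The genes around the clusters were not called. Of the 5 nearest protein-coding genes on each side of the *Apoa1* cluster, 9 were tested, with 0 called, 6 lower, 3 higher and a median log2 fold change of -0.07. *Zpr1*, next to *Apoa5*, went from 80.3 ± 12.9 to 69.9 ± 8.53 CPM (log2 fold change -0.20, SE 0.115), and *Sik3*, next to *Apoa1*, from 42.4 ± 4.46 to 43.8 ± 2.91 CPM (0.05, SE 0.0814). Around the *Apoe* cluster 10 were tested, with 0 called, 8 lower, 2 higher and a median of -0.07. *Tomm40*, next to *Apoe*, went from 51.4 ± 3.84 to 47.3 ± 6.84 CPM (-0.12, SE 0.0941), and *Clptm1*, beside *Apoc2*, from 94.7 ± 3.02 to 103.8 ± 3.16 CPM (0.13, SE 0.0551). None of these neighbours was called by DESeq2 either, and in none did the groups part completely. Over all tested genes 1.03% were called by edgeR, 3.50% by DESeq2, 3.98% parted the groups and 49.0% were lower. The 2 sets were small, so 0 called does not set them apart from all genes, and their values are descriptions.

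Ratios of genes in the same liver need no scaling between libraries, but the length trend can remain in them where the transcripts differ in length. *Apoa1* to *Apob*, an HDL to a VLDL message, was 2.89, 2.79, 2.99, 2.92 and 3.33 in controls and 2.74, 2.27, 1.71, 2.73 and 1.647 in treated livers. No treated liver reached the lowest control, although treated livers 1 and 4 came close to it. The log2 ratio differed by -0.46 (SE 0.164, exact permutation P = 0.00794, 0.0159 after Benjamini-Hochberg adjustment over 4 ratios). With the length trend removed the difference was -0.31 (exact P = 0.0159, adjusted 0.0317). Without treated livers 3 and 5 it was -0.21 (exact P = 0.0357, adjusted 0.0714).

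*Apoa5* to *Apoc3*, the helper and the brake of lipoprotein lipase within 1 cluster, was 0.938, 1.047, 0.999, 0.913 and 0.953 in controls. In treated livers it was 0.720, 0.602, 0.903, 0.775 and 0.803, below every control. The difference was -0.36 (SE 0.103, exact P = 0.00794, adjusted 0.0159). Here treated livers 3 and 5 were the closest to the controls. Without them the difference was -0.48 (exact P = 0.0357, the smallest that 3 against 5 can give, adjusted 0.0714). With the length trend removed it was -0.54 (exact P = 0.00794, adjusted 0.0317).

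*Apoa1* to *Apoe*, 1 gene of each cluster, was 0.354 to 0.444 in controls and 0.344 to 0.385 in treated livers. The groups overlapped, and the difference of -0.17 (SE 0.0685) had an exact P of 0.0397 and missed 0.05 after adjustment (0.0529). It was -0.15 with the length trend removed and -0.17 without treated livers 3 and 5. Without control 2 it was -0.22 with an adjusted P of 0.0212. *Apoc2* to *Apoc3*, the switch and the brake of the lipase, differed by 0.02 (SE 0.236, exact P = 0.905), too wide an error to place it.

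**Figure D4:**
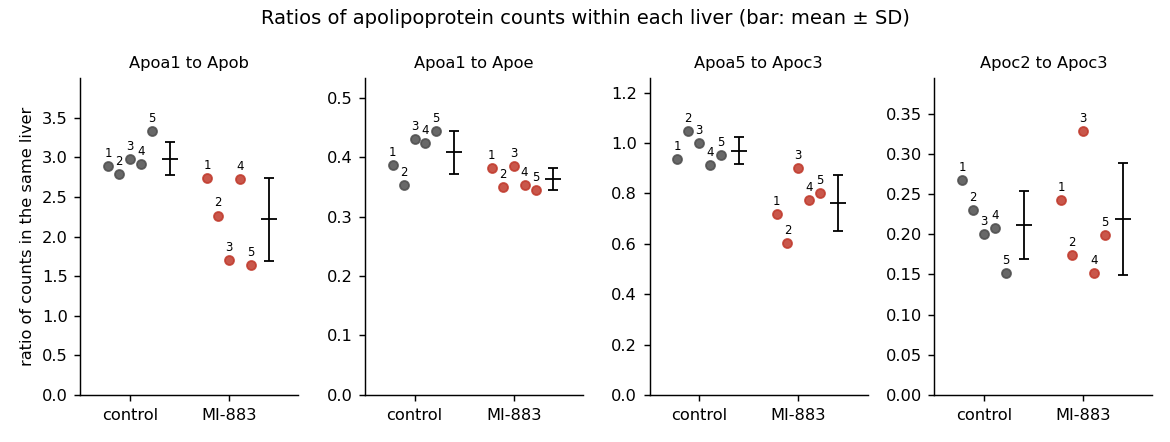
Ratio of counts of 2 genes in the same liver, on linear axes from 0, with single livers as numbered points and the mean ± SD of 5 livers beside them. *Apoa1* to *Apob* and *Apoa5* to *Apoc3* part the groups completely, whereas *Apoa1* to *Apoe* and *Apoc2* to *Apoc3* overlap.

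Across livers, with the group means removed, the genes that varied together did not follow the clusters, and 4 of the 5 shortest transcripts formed one such group. Pearson's r over 10 livers was 0.98 for *Apoc3* with *Apoa2*, 0.95 for *Apoc4* with *Apoa2* and with *Apoc3*, and 0.92 for *Apoc1* with *Apoc4*, although *Apoa2* lies on another chromosome. Within a cluster the median r over 12 pairs of genes was 0.25, and between the clusters it was 0.57 over 16. *Apoc2*, also short, stood apart from that group, with r of -0.12 with *Apoc3* and -0.11 with *Apoa2* but 0.81 with the longer *Apoa4*. *Apob* ran against the group, with r of -0.75 with *Apoc3* and -0.72 with *Apoa2*. The contrast of short and long genes described above had an r of 0.92 with *Apoc4*, 0.91 with *Apoc3* and *Apoa2*, 0.87 with *Apoc1* and -0.81 with *Apob*, but 0.26 with *Apoc2* and 0.52 with *Apoa5*. With the trend removed, r fell to 0.05 for *Apoc3* with *Apoc1* and to 0.06 for *Apoc1* with *Apoc4*. It stayed at 0.84 for *Apoc3* with *Apoa2*, 0.66 for *Apoa1* with *Apoe* and 0.90 for *Apoa4* with *Apoc2*. These points share their libraries and scaling, and are descriptions with no test.

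**Figure D5:**
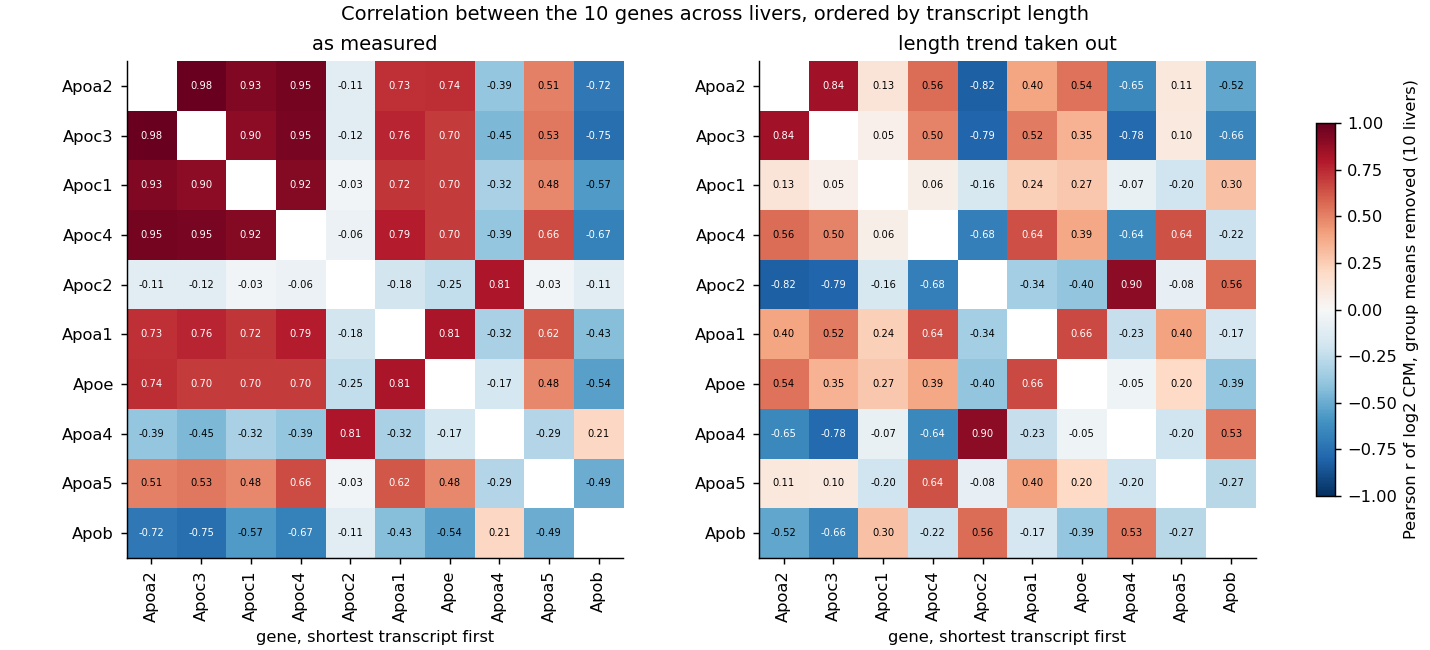
Pearson's r of log2 CPM between the 10 genes over 10 livers with group means removed, as measured (left) and with the length trend removed (right). Genes are ordered from the shortest to the longest transcript, and red is positive. The block of *Apoa2*, *Apoc3*, *Apoc1* and *Apoc4* at 0.90 to 0.98 on the left loosens to 0.05 to 0.84 on the right, while *Apoa4* with *Apoc2* goes from 0.81 to 0.90.

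The genes most like *Apoa1* across livers, among 11613 with a mean of at least 1 CPM, were *Slc4a1ap* (r = 0.96), *Cdc37* (0.96), *Clu* (0.96), *Crb3* (0.95) and *Ap2m1* (0.94). For *Apoe* they were *Zc3h10* (0.97), *Ddrgk1* (0.97), *Mlf2*, *Prcc* and *Lypla2* (each 0.96). No other of the 10 genes was among them, *Apoe* ranking 201 for *Apoa1* and *Apoa1* ranking 274 for *Apoe*. None of these 10 neighbours in pattern was called. *Clu*, itself a lipoprotein protein, went from 1954 to 2202 CPM (log2 fold change 0.17, SE 0.0935).

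Other secreted proteins of the hepatocyte were also slightly lower. Of 20 plasma protein genes 19 were lower and 1 higher, against 49.0% of all genes lower, and their log2 fold changes centred on a median of -0.16. EdgeR called 0 of the 20, against 1.03% of all genes. DESeq2 called 1, *Fgg*, as lower, where it called 1.30% of all genes lower and 3.50% in either direction. *Alb* went from 56571 ± 4446 to 50506 ± 3589 CPM (-0.16, SE 0.114), *Ttr*, the thyroxine carrier, from 6465 ± 567 to 5447 ± 458 CPM (-0.25, SE 0.0992), and *Fgg* and *Fgb*, fibrinogen chains, had log2 fold changes of -0.41 and -0.38. Relative to *Alb* in the same liver, *Apoa5* went from 4.06 ± 0.313 to 3.13 ± 0.403 per 100 *Alb* reads, a log2 difference of -0.38, and the groups did not overlap. For *Apoa1* this was 22.1 ± 2.68 and 17.3 ± 2.17, for *Apoc1* 5.23 ± 0.511 and 4.24 ± 0.335, and for *Apoc4* 1.76 ± 0.114 and 1.42 ± 0.190, with overlap in each. *Apob* was higher relative to *Alb*, by 0.11.

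Among 10 further apolipoproteins and HDL-borne proteins that were tested, 9 were lower and *Clu* was higher, against 49.0% of all genes lower. Their median log2 fold change was -0.16. Neither tool called any of them, against 1.03% of all genes called by edgeR and 3.50% by DESeq2. *Apol7a*, *Apom*, an HDL carrier of sphingosine phosphate, and *Apoh* had the largest log2 fold changes, -0.38, -0.29 and -0.29. Of 18 genes for regulators of apolipoprotein transcription 1 was called, against 1.03% of all genes. It was *Srebf1*, the driver of lipogenesis, which fell from 486 ± 84.3 to 324 ± 44.2 CPM (log2 fold change -0.58, SE 0.125, edgeR adjusted P = 0.0470). Of these regulators 14 were lower and 4 higher, against 49.0% of all genes lower, with a median of -0.15. *Foxa2* had the next largest log2 fold change, -0.38 (SE 0.171). *Cebpa* (-0.30) was called by DESeq2 alone. Of 3 regulators named for their role after the values were seen, *Hnf4a*, which drives most of the 10 genes, lay at 429 ± 60.1 and 429 ± 69.4 CPM, *Ppara* went from 372 to 352 CPM and *Creb3l3*, which drives *Apoa4*, *Apoa5* and *Apoc2*, from 428 to 455 CPM.

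Genes that build and handle the particles went in both directions. Of 20, 11 were higher and 9 lower, against 49.0% of all genes lower, and the median was 0.13. EdgeR called 0 of them, against 1.03% of all genes. *Sort1* (0.61), *Angptl8* (-0.58) and *Scarb1* (-0.37), the HDL receptor, had the largest log2 fold changes. DESeq2 called 5 of the 20, against 3.50% of all genes, among them *Pdia4* and *P4hb*, which help proteins fold, higher and *Lipc* (hepatic lipase) and *Scarb1* lower. The groups parted in 3 of the 20, named here after their values were seen, against 3.98% of all genes. Of these 3, 1 was lower and 2 were higher, against 1.93% and 2.05% of all genes. *Lipc* lay at 166 ± 11.8 CPM in controls and 134 ± 8.52 in treated livers (log2 fold change -0.31, SE 0.0716, edgeR adjusted P = 0.0599), *Mttp*, which loads lipid onto Apob, at 427 ± 25.0 and 490 ± 25.0 CPM (0.20, SE 0.0707, edgeR adjusted P = 0.203), and *Pdia4* at 163 ± 14.1 and 195 ± 12.4 CPM (0.26, SE 0.0761, edgeR adjusted P = 0.142).

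Of 10 targets of Crebh and PPAR-alpha in lipid handling, 4 were higher and 6 lower, with a median log2 fold change of -0.03. EdgeR called 1 of them, against 1.03% of all genes, of which 49.0% were lower. *Pdk4*, which restrains glucose oxidation, was the 1 called by edgeR and rose from 13.7 ± 4.72 to 33.3 ± 6.76 CPM (log2 fold change 1.27, SE 0.23, edgeR adjusted P = 0.0198). *Fabp1*, the liver fatty acid binding protein, went the other way, from 4765 ± 399.5 to 3903 ± 312 CPM (-0.29, SE 0.0955) with no overlap, and was called by DESeq2 (adjusted P = 0.0177) but not by edgeR (0.176). *Cyp4a14* had a log2 fold change of -1.20 with a wide error (SE 0.433) and was called by neither tool.

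Markers of the cells in the sample were checked beside these values. The 6 hepatocyte markers (*Alb*, *Ttr*, *Hnf4a*, *Cps1*, *Asgr1* and *Ahsg*) summed to 65740 to 76171 CPM in controls and 56529 to 68104 CPM in treated livers. The exact permutation P was 0.0317, unadjusted for the several marker lists. All 6 were lower, against 49.0% of all genes, *Hnf4a* with a log2 fold change of only -0.003, and 0 were called by either tool. *Alb*, *Ttr* and *Ahsg* are also among the plasma protein genes above. *Alb* made up most of their sum. This sum lay lower in treated livers, as did most of the apolipoprotein genes, and its part in their levels was not tested. Kupffer and macrophage markers summed to 245 to 363 and 198 to 434 CPM, stellate cell markers to 205 to 317 and 225 to 370 CPM, endothelial markers to 96.0 to 131 and 105 to 144 CPM, and cholangiocyte markers to 25.0 to 116 and 35.1 to 190 CPM. Enterocytes, the other main source of *Apoa4* and *Apob* mRNA, left 0.0439 to 0.368 and 0.106 to 0.814 CPM over 4 listed markers. By the same exact test the sums of these other cell types had P = 0.921, 0.238, 0.524, 0.262 and 0.5, in the order given. In direction, 6 Kupffer and macrophage markers were higher and 2 lower, and 5 stellate cell markers were higher and 1 lower. Of the endothelial markers 4 were higher and 1 lower, and all 5 cholangiocyte markers were higher. None of these was called by either tool.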

How the data were processed

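Liver RNA of 5 control and 5 MI-883-treated mice was sequenced from a directional kit. The authors trimmed reads (fastp 0.23.0, per the labels), aligned them to the mouse genome (mm10) and counted them on genes with featureCounts. They deposited raw counts per gene, with no normalization. The annotation and strand setting of the counting are not given in the sources used here. Of 16647 genes, 16644 were matched to RefSeq (GRCm38) by Entrez number. Transcript lengths were of GENCODE M21 principal transcripts.

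The 10 genes and the gene lists were chosen with earlier results of these data known. Livers were grouped by their labels. Genes with at least 60 counts over the 10 livers were tested in edgeR 4.0.16 (R 4.3.3; TMM, quasi-likelihood, Benjamini-Hochberg, threshold 0.05), 13219 in all, and 3428 were below that minimum. SE is the log2 fold change over the square root of F, and levels are CPM, or log2 CPM with a prior count of 0.5. DESeq2 1.42.0 (Wald) was an alternative. Single genes and ratios were compared with exact two-sided permutation tests, unadjusted for single genes (smallest P 0.00794). Pipelines were tested on simulated data.

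The genes named are the 10, the 5 nearest protein-coding genes on each side of each cluster, the called genes of each list or else up to 3 with the largest change, and the 5 genes most like *Apoa1* and *Apoe*. Others (*Alb*, *Ttr*, *Foxa2*, *Cebpa*, *Hnf4a*, *Ppara*, *Creb3l3*, *Lipc*, *Mttp*, *Pdia4*, *P4hb*, *Fabp1* and *Cyp4a14*) were named after their values were seen. The length trend was a loess curve (span 0.5) of each liver's deviations over log2 length, fitted to genes of at least 10 CPM and entered as an offset. This and leaving out treated livers 3 and 5 were chosen after seeing the data. Promoter windows were found for 8 of the 10 genes.

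Replicate numbers were shared between the groups, but same-numbered livers had correlations of deviations from -0.120 to 0.356, so the numbers were not taken as pairs.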

Additional observations from a re-analysis of the deposited data

Results flagged for a closer look

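Among 38 groups of 5 values examined (the levels of the 10 genes, the 4 ratios, the 3 cluster means, the share of reads and the contrast of short and long genes, each in control and treated livers), 2 held a liver far from the other 4, where chance gives about 1.9. *Apob* lay at 4644 CPM in control replicate 3, with the next control at 4082 CPM. Without that liver the log2 fold change of *Apob* was -0.0082 (SE 0.102, edgeR adjusted P = 0.979). The contrast of short and long genes was 0.277 in control replicate 4, with the next control at 0.0630. Treated livers 3 and 5, low in the same contrast, lay close to each other and so were not singled out by this rule.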

How the results depend on the processing

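The number of genes called was 136 in edgeR, 463 by DESeq2, 89 with the replicate number as a block, 54 without treated livers 3 and 5, and 62 to 208 when single livers were left out (62 without treated liver 5, 208 without control 1). Of the 10 apolipoprotein genes 1 was called in edgeR, 5 by DESeq2, 4 with total counts in place of TMM (*Apoa1*, *Apoa5*, *Apoc1* and *Apoc4*), and 2 with at least 60 counts in every liver, with filterByExpr (*Apoa5* and *Apoc1* in both) or with the length trend removed (*Apoa5* and *Apoc4*). None was called with the replicate block, where *Apoa5* had an adjusted P of 0.0599, or without treated livers 3 and 5, and 0 to 2 when single livers were left out. The block came with no sign that the numbers pair livers, since no liver correlated best with its own number. The log2 fold changes kept their sign in every fit, except that the length trend turned *Apoc3* to 0.013 and *Apoc2* to 0.045.

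Of the regulators 1 was called in edgeR, 2 by DESeq2, and 0 with total counts or without treated livers 3 and 5. For the particle-handling genes DESeq2 called 5 against 0, for the Crebh and PPAR-alpha targets 2 against 1 (0 without treated livers 3 and 5), and for the plasma proteins 1 against 0.

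The mean log2 difference of the *Apoa1* cluster was -0.38 from summed CPM, and with the length trend removed it was -0.19 for the *Apoe* cluster and -0.10 for *Apoa2* with *Apob*. Without single livers these means ranged from -0.27 to -0.17 (*Apoa1* cluster), -0.41 to -0.30 (*Apoe* cluster) and -0.22 to -0.17. The share of reads differed by -1.22 percentage points for the 10 genes, and by -1.82 when the 100 most abundant other genes were left out of the denominator (-0.57 for the *Apoa1* cluster, -0.997 for the *Apoe* cluster and -0.25 outside). Without single livers it differed by -1.33 to -1.04.

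The ratio of *Apoa1* to *Apob* differed by -0.37 as a difference of medians (exact permutation test, adjusted P = 0.0952), -0.46 with the replicate block (exact sign-flip P = 0.0625, the smallest 5 numbers allow), -0.21 without treated livers 3 and 5, and -0.54 to -0.36 without single livers. That of *Apoa5* to *Apoc3* differed by -0.30, -0.36, -0.48 and -0.43 to -0.28 in the same order. For it the permutation test of medians gave the same adjusted P of 0.0952, and the block the same sign-flip P of 0.0625. The ratio of *Apoa1* to *Apoe* differed by -0.26 as a difference of medians and by -0.22 to -0.13 without single livers. That of *Apoc2* to *Apoc3* was -0.062 as a difference of medians, -0.16 without treated livers 3 and 5, and -0.13 to 0.14 without single livers. The causes of these changes were not tested. Depth was not limiting, since every one of the 10 genes had at least 8173 counts in each liver.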
